A study of Rattus norvegicus with 10 samples.

Results

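The digestive proteases of pancreatic juice were followed in rat liver RNA: the trypsinogen genes Prss1, Prss2, Prss3b and Prss3bl1, the chymotrypsinogen gene Ctrb1, the elastase genes Cela1 and Cela2a, and the carboxypeptidase genes Cpa1 and Cpb1. Every probe set with 1 of these 9 symbols, and no other, in the probe table of the array was taken. This gave 10 of the 8799 probe sets on the array, and 9 of the 4737 genes with a probe set of their own. Prss2 had 2 probe sets and each other gene had 1. The genes were chosen after their values on these arrays had been seen, in the comparisons of burn with sham and between burn times. Their levels, differences and counts past a threshold, adjusted or not, are therefore given as a description and support nothing. No p-value of a single one of the 9 genes is given.

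The study held 10 expression arrays of total RNA from rat liver (Rattus norvegicus) in 5 groups of 2. The control group was sham rats with the label 0 h, and the others were burned rats at 1 h, 4 h, 8 h or 24 h. The labels name no transgene, deletion or drug, and do not give the strain, sex, age or size of the burn. Whether both arrays of a time point came from different rats is not stated, so the p-values given for other genes cover the spread of these 10 arrays alone, and part or all of it may be technical.

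Trypsinogens, chymotrypsinogens, proelastases and procarboxypeptidases are made as inactive precursors in the acinar cells of the pancreas and are secreted into the gut. There enteropeptidase cuts trypsinogen to trypsin, and trypsin activates the other precursors. Trypsin, chymotrypsin and elastase are serine proteases that cut inside a protein chain, while carboxypeptidases A and B remove residues from its end. In acinar cells their genes are driven by the PTF1 complex, which binds an E-box of the letters CACCTG together with a second box of the letters TTTCCCA.

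The promoters are shown first because the genes had similar patterns across the arrays and because the E-box is a known feature of acinar genes. Sequences came from RefSeq (build GRCr8), which held a promoter for 8 of the 9 genes, Cela2a being the exception. The 250 bases before each start were searched on both strands. CACCTG was found in 7 of the 8 promoters (Prss1, Prss2, Prss3b, Prss3bl1, Ctrb1, Cela1 and Cpb1) and not in that of Cpa1. CACCTG was found in 15.9% of all 33469 promoters, in 15.5% of the 3880 genes on the array with a promoter, and in 6 of 21 promoters of other exocrine pancreas genes. TTTCCCA was found in the promoters of Prss1 and Ctrb1, in 7.1% of all promoters and in 4 of the 21 promoters of other exocrine pancreas genes. No match of this box overlapped a CACCTG in these genes. The boxes lay 4 bases apart in Ctrb1 and 52 bases apart in Prss1, where the TTTCCCA lies outside the stretch printed below. Only exact letters were counted. In Cela1 the letters tttccct lie 4 bases from the CACCTG. In Prss2 the letters ggggaaa lie 4 bases from the CAGGTG. Each is the second box with its last letter changed, in Prss2 read on the other strand. In Prss3b and Prss3bl1 the stretches printed below hold the letters attccca, the second box with its first letter changed. These near matches were read by eye, and their share over all promoters was not counted. TATAAA, searched on the gene's own strand, was found in 5 of the 8 (Prss1, Prss2, Prss3b, Cela1 and Cpb1). It was found in 8.06% of all promoters and in 8 of the 21 promoters of other exocrine pancreas genes. A match is only a match of letters. The stretches around the E-box letters are printed 5′ to 3′ on the gene's strand, with CACCTG (or CAGGTG, the same box on the other strand) and TTTCCCA in capitals:
Prss1, chr4:71331042-71331099, plus strand: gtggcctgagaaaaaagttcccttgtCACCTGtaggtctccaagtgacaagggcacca
Prss2, chr4:71244830-71244887, plus strand: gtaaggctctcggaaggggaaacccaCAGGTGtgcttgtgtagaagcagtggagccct
Prss3b, chr4:70842398-70842442, minus strand: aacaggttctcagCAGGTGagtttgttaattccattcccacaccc
Prss3bl1, chr4:70770449-70770506, minus strand: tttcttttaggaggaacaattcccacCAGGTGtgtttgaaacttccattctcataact
Ctrb1, chr19:56567153-56567210, minus strand: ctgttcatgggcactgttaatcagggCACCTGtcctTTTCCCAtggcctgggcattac
Cela1, chr7:133665143-133665200, minus strand: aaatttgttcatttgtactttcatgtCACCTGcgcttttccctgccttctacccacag
Cpb1, chr2:104714788-104714845, minus strand: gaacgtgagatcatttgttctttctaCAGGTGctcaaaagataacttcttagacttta

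The 4 trypsinogen genes lie in 1 stretch of chromosome 4 in that build, in the order Prss3bl1, Prss3b, Prss2 and Prss1, with 2, 18 and 3 annotated genes between neighbours. Further trypsinogen genes (Prss3, Try5 and Try10) lie among them. Related copies can bind the same probes, and the probe sequences were not used here. The share of each trypsinogen gene in the signal of its probe set is therefore uncertain.

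Values are intensities on a linear scale. Values under 36.4, the median of the 25th percentiles of the arrays, have no order among themselves and were raised to this floor before taking log2. Each fold divides the geometric means of 2 groups of floored values. A fold is written with "at least" where both arrays of the lower group were under the floor. A probe set was called when limma's adjusted p over all 5285 tested probe sets was under 0.05. All 10 probe sets passed the filter on low values. Prss3bl1 and the Prss2 probe set L00131cds_s_at, however, passed it only with both 1 h arrays, the group where they were high.

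At 1 h all 9 genes lay higher than in sham on both arrays. At 4 h and 24 h most lay far below sham, many under the floor, and at 8 h most lay close to sham. The mean over the 10 probe sets, each centred on its own mean over the arrays, was 0.15 and 0.26 on the sham arrays (log2 scale). It was 2.75 and 2.8 at 1 h, -1.81 and -1.68 at 4 h, 0.59 and 0.66 at 8 h, and -1.9 and -1.81 at 24 h. The 1 h arrays stood highest and the 8 h arrays next, the sham arrays lay below these, and the 4 h and 24 h arrays lay lowest, close to each other.

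**Figure D1:**
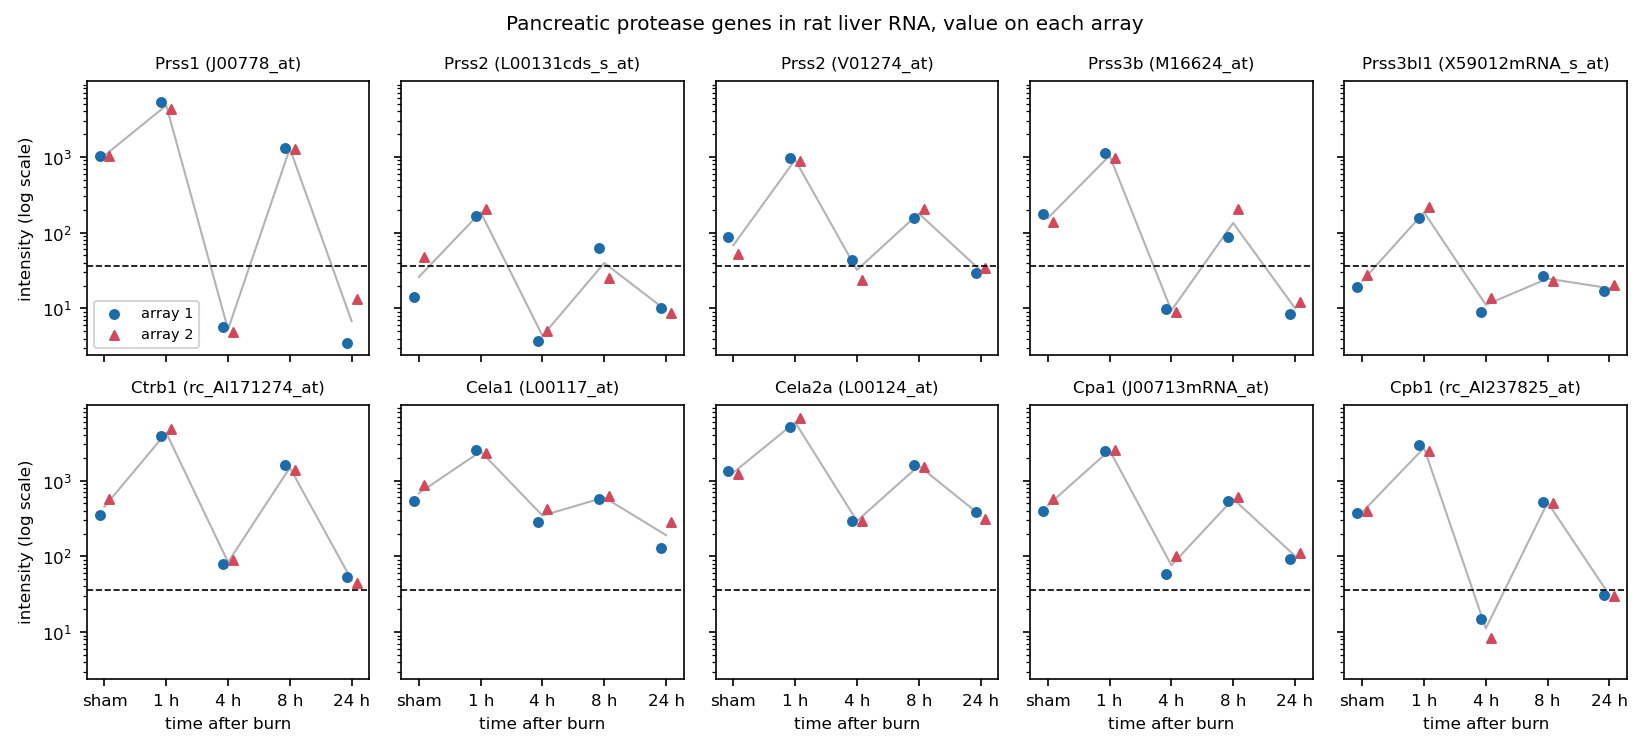
Intensity (log axis) of the 10 probe sets of the 9 pancreatic protease genes on each array, by time after burn. Circles are the first and triangles the second array of a group, the grey line joins their geometric means and the dashed line is the floor of 36.4. Every probe set is highest at 1 h, and 5 and 6 of the 10 have both arrays under the floor at 4 h and at 24 h.

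Prss1, the gene of a major trypsinogen (probe set J00778_at), read 1040.3 and 1038.9 on the sham arrays and 5339.9 and 4261.7 at 1 h. It read 5.7 and 4.9 at 4 h, 1314.2 and 1265.1 at 8 h, and 3.5 and 13.2 at 24 h. The 4 h and 24 h arrays were all under the floor, while no array of the other 3 groups was. Against sham Prss1 was 4.59-fold higher at 1 h (log2 difference 2.2, SE 0.16, n = 2 and 2), at least 28.6-fold lower at 4 h and at 24 h, and 1.24-fold higher at 8 h. From 1 h to 4 h it was at least 131-fold lower, a bound set by the floor.

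Prss2, a second trypsinogen, was read by V01274_at at 88.2 and 52.6 in sham, 955.9 and 877 at 1 h, 43.7 and 23.7 at 4 h, 157.8 and 203.3 at 8 h, and 29.4 and 34.2 at 24 h. The 1 h arrays were 13.4-fold above sham (log2 difference 3.75, SE 0.27) and the 8 h arrays 2.63-fold above (1.39, SE 0.27), with no overlap in either case. The other Prss2 probe set, L00131cds_s_at, read 14.2 and 47.7 in sham, 167.8 and 206.5 at 1 h, 3.7 and 5.1 at 4 h, 63.1 and 25.1 at 8 h, and 10.1 and 8.8 at 24 h. On it only the 1 h arrays were clear of sham, and the 8 h arrays overlapped the sham arrays (log2 difference 0.2, SE 0.28). The 2 probe sets of Prss2 therefore had the same direction at 1 h and differed in their calls at 8 h.

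Prss3b, a trypsinogen gene read by M16624_at, lay at 177 and 136.4 in sham and at 1112.2 and 968.1 at 1 h. It lay at 9.8 and 9 at 4 h, 88 and 204.6 at 8 h, and 8.4 and 12.1 at 24 h. It was 6.68-fold above sham at 1 h and at least 4.27-fold below it at 4 h and at 24 h (SE 0.37 on the log2 scale). At 8 h its arrays lay on either side of the sham arrays, and they differed by 1.22 on the log2 scale, the widest gap between arrays of a group among the 10 probe sets after values were raised to the floor. Prss3bl1, read by X59012mRNA_s_at, was above the floor at 1 h alone, at 156.8 and 219.1, and lay between 9 and 27.6 on the other 8 arrays. Its 1 h level was at least 5.09-fold above sham, and no other comparison of it with sham has a fold.

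Ctrb1, the gene of chymotrypsinogen B (rc_AI171274_at), read 354.8 and 577.1 in sham, 3820.7 and 4760.8 at 1 h, 78.7 and 89 at 4 h, 1607.4 and 1360.3 at 8 h, and 52.8 and 44.8 at 24 h. Its 5 groups did not overlap at any neighbouring pair of levels. Ctrb1 was 9.42-fold above sham at 1 h (log2 difference 3.24, SE 0.26), 5.41-fold below at 4 h and 9.3-fold below at 24 h. At 8 h it was 3.27-fold above sham (log2 difference 1.71), the largest difference of the 10 probe sets at that time.

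Of the elastase genes, Cela2a (L00124_at) read 1343.3 and 1212.3 in sham, 5097 and 6764.3 at 1 h, 292.3 and 293.6 at 4 h, 1622.8 and 1514.2 at 8 h, and 382.4 and 314.8 at 24 h. Its 5 groups did not overlap, and it was above the floor on every array. Against sham it was 4.6-fold higher at 1 h, 4.36-fold lower at 4 h, 1.23-fold higher at 8 h and 3.68-fold lower at 24 h (SE 0.19 on the log2 scale).

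Cela1 (L00117_at), the other elastase gene, read 537.1 and 864.8 in sham, 2542.9 and 2308.7 at 1 h, 281.4 and 421.6 at 4 h, 571.6 and 626.5 at 8 h, and 129.1 and 280.7 at 24 h. It had the smallest log2 difference of the 10 probe sets at 1 h (1.83) and the largest SE (0.41), and its 1 h level was not called. At 4 h it was 1.98-fold below sham and was not called, and at 24 h it was 3.58-fold below and was called. Its sham and 8 h arrays overlapped.

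The carboxypeptidase gene Cpa1 (J00713mRNA_at) read 393.5 and 562.4 in sham, 2465.3 and 2562 at 1 h, 57.7 and 100.3 at 4 h, 532.1 and 614 at 8 h, and 93.1 and 110.5 at 24 h. It was 5.34-fold above sham at 1 h, 6.18-fold below at 4 h and 4.64-fold below at 24 h (SE 0.3 on the log2 scale). Its sham and 8 h arrays overlapped, as did its 4 h and 24 h arrays. Cpb1 (rc_AI237825_at) read 374.3 and 392.8 in sham, 2980.2 and 2438 at 1 h, 14.9 and 8.4 at 4 h, 521.9 and 504.7 at 8 h, and 31.1 and 30.3 at 24 h. Cpb1 was 7.03-fold above sham at 1 h and at least 10.5-fold below at 4 h and at 24 h (SE 0.16 on the log2 scale). At 8 h both arrays lay above both sham arrays, 1.34-fold on average, and the difference was not called.

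**Figure D2:**
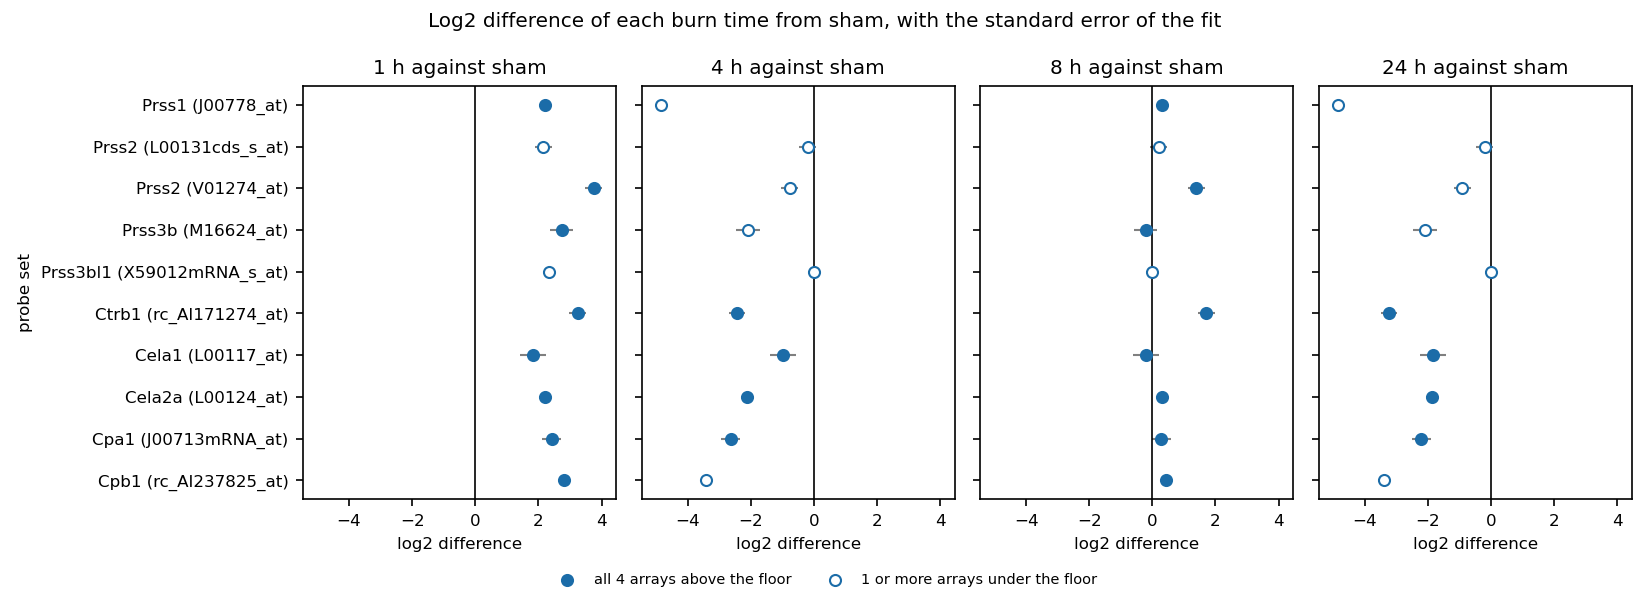
Log2 difference of each probe set from sham at 1, 4, 8 and 24 h after burn, with the standard error of the limma fit as a bar. Filled points have all 4 arrays above the floor, and open points have 1 or more arrays under it. All 10 points lie between 1.83 and 3.75 at 1 h and between -0.21 and 1.71 at 8 h, and at 4 h and 24 h none lies above 0.

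The 1 h group had the highest mean for all 10 probe sets. The 8 h group came next for 7 of them, both Prss2 probe sets and those of Prss1, Ctrb1, Cela2a, Cpa1 and Cpb1. For Prss3b and Cela1 sham lay above 8 h, and in both the sham and 8 h arrays overlapped, as they did for Cpa1 and for Prss2 on L00131cds_s_at. The 4 h and 24 h groups were the lowest for the 9 probe sets other than that of Prss3bl1, whose 4 groups apart from 1 h were all under the floor. Their arrays overlapped, or were all under the floor, except for Ctrb1 and Cela1 (lower at 24 h) and Cela2a (lower at 4 h).

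The calls among the 10 probe sets were as follows, beside the share of all 5285 tested probe sets called in that direction. At 1 h 9 were called higher than sham, all but Cela1 (0.795% of all tested). At 4 h 6 were called lower, those of Prss1, Prss3b, Ctrb1, Cela2a, Cpa1 and Cpb1 (1.99%), and at 24 h the same 6 and Cela1 (6.34%). At 8 h 2 were called higher, those of Ctrb1 and Prss2 on V01274_at (1.55%). All 10 lay lower at 4 h than at 1 h and were called (2.54%). From 8 h to 24 h 8 were called lower, all but Prss3bl1 and the Prss2 probe set L00131cds_s_at (5.94%). The 4 comparisons with sham share the sham arrays, while the step from 1 h to 4 h and the step from 8 h to 24 h share no array. Since these comparisons chose the genes, nothing is read from the shares.

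The median log2 difference over the 10 probe sets against sham was 2.38 at 1 h and 0.29 at 8 h, while it was -2.1 at 4 h and -1.98 at 24 h. It was -4.68 from 1 h to 4 h and -2.24 from 8 h to 24 h. Over all tested probe sets the medians lay between -0.1 and 0.07. Differences of probe sets at the floor are bounds, so the medians at 4 h and 24 h understate the distance. Both arrays were above both sham arrays at 1 h for all 10 probe sets, against 21.7% of all tested, and at 8 h for 5, against 18.5%. Both were below both sham arrays for 8 at 4 h (25.8%) and for 8 at 24 h (29.2%). From 1 h to 4 h all 10 lay lower without overlap (27.9%), and from 8 h to 24 h 8 did (24.9%).

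Leaving out 1 array changed some of these calls. Without either 1 h array Prss3b and Cpa1 were tested and lost their calls at 1 h. Prss3bl1 and Prss2 (L00131cds_s_at) then did not pass the filter on low values and were not tested. Without sham array 1 Prss3b, Cpa1 and that Prss2 probe set were not called at 1 h. Without sham array 2 Prss3b and that Prss2 probe set were not called at 1 h. At 8 h limma called 0 of the 10 without 8 h array 1, without 8 h array 2 or without 4 h array 2, where 2, 4 and 3 had an unadjusted p under 0.05. Without any other single array 1 was called at 8 h, Prss2 (V01274_at) without sham array 1 and Ctrb1 in each other case.

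Other calls of Prss3b and Cela1 were also lost in fits without a single array. Such a fit has fewer residual degrees of freedom and another estimate of the spread. This also holds when the array left out belongs to a group not compared. Both 4 h and both 24 h arrays of Prss3b were under the floor, so leaving out either kept its level there at the floor. Prss3b was not called at 4 h without either sham array or either 4 h array, nor at 24 h without either sham array or either 24 h array. Cela1 was not called at 24 h without either sham, 1 h or 8 h array or without 24 h array 1, and Prss2 (V01274_at) was called lower at 24 h without sham array 2. From 8 h to 24 h Cela1 was called only with both 1 h, both 4 h and both 8 h arrays, sham array 1 and 24 h array 1 in the fit, and Prss3b only with both 24 h arrays. From 1 h to 4 h Cela1 was not called without either 1 h array or without 4 h array 1. Prss3bl1 and Prss2 (L00131cds_s_at) were not tested without either 1 h array. With the sham and 1 h arrays alone in the fit limma called 0 of the 10 at 1 h, where all 10 had an unadjusted p under 0.05, and 0 of all 5285, where 574 did.

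The arrays of a group agreed about as well for these genes as for the rest. In 37 of 50 pairs at least 1 array was above the floor, and there the median difference between the arrays of a group was 0.28 on the log2 scale, beside 0.27 for all tested probe sets. In 5.41% of these pairs it was over 1, beside 10.7% for all tested. The largest difference between arrays of a group, after the floor, was 1.22 for these probe sets and 3.88 for all tested.

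Across the 10 arrays the log2 values of the probe sets correlated with each other, with Pearson's r between 0.62 and 0.99 over the 45 pairs and a median of 0.92. The arrays share a scaling and fall into 5 groups, so this describes how alike the patterns were. The lowest value was that of Prss1 with Prss3bl1, of which the latter was above the floor on 2 arrays.

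Of the 3134 other genes tested, the 10 whose values over the 10 arrays were most like the mean pattern of the proteases were Rup2 (r = 0.988), Pnlip (on D88534_s_at) and Amy2a3 (0.984 each), Pla2g1b (0.978), Clps (0.976), Fdps (0.973), Rnase1 (0.968), Cel (0.961), Lss (0.957) and Cyp51 (0.955). Each gene was taken by its tested probe set with the highest r, and the median of these values over all 3134 genes was 0.121. Pnlip (pancreatic lipase), Amy2a3 (pancreatic amylase), Pla2g1b (a secreted phospholipase), Clps (colipase), Rnase1 (a secreted ribonuclease) and Cel (carboxyl ester lipase) encode other proteins of pancreatic juice. Fdps, Lss and Cyp51 encode enzymes of cholesterol synthesis, which hepatocytes carry out.

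The 4 genes of the 10 that are not on the exocrine list were also highest at 1 h, with smaller differences between groups. Rup2 read 18965.6 and 18428.2 in sham, 28791.8 and 28713.9 at 1 h, 13779 and 12976 at 4 h, 21559.6 and 21127.5 at 8 h, and 14415.7 and 14457.1 at 24 h. Its log2 difference from 1 h to 4 h was -1.1 (SE 0.14), where the proteases lay between -2.35 and -7.03. From 1 h to 4 h the log2 difference of Fdps was -0.83 (SE 0.14), that of Cyp51 -0.99 (SE 0.16) and that of Lss -0.66 (SE 0.15), and those of Fdps and Cyp51 were called. In all, 21 genes had an r of at least 0.9, and 9 of them were on the exocrine list.

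**Figure D3:**
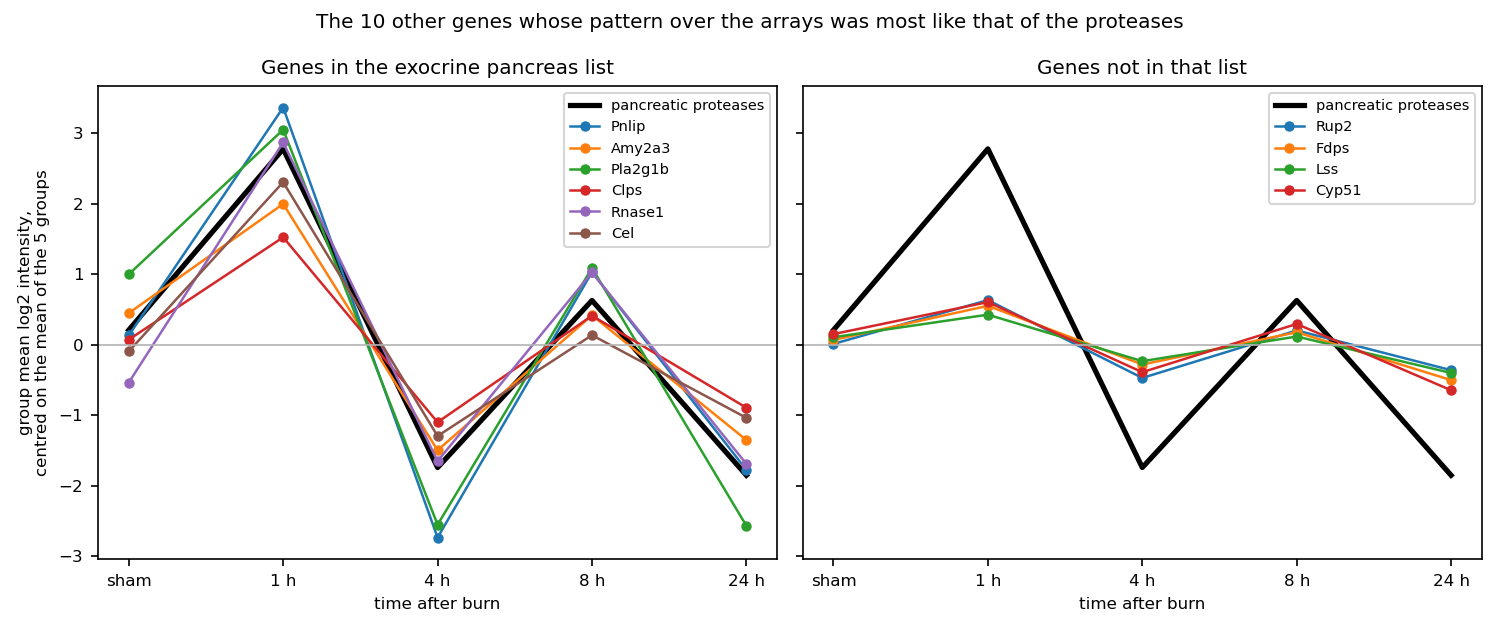
Group means of the log2 intensity after the floor, centred on the mean of the 5 groups, for the 10 other genes most like the proteases, by time after burn. The black line is the mean of the 10 protease probe sets. The groups of the 6 genes on the exocrine list span 2.62 to 6.1, and those of Rup2, Fdps, Lss and Cyp51 span 0.83 to 1.25, all with the highest mean at 1 h.

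The other genes of the exocrine pancreas came from a list of 35, of which 24 were on the array and 18 were tested, each by the probe set with the highest mean. At 1 h 6 were called higher than sham: Pnlip (5.44-fold, on M58369_at), Amy2a3 (2.92-fold), Pla2g1b (4.15-fold), Cel (5.28-fold), Rnase1 (10.6-fold) and Gp2, a membrane protein of zymogen granules (at least 3.83-fold). Gp2, Pnliprp2 and Cuzd1, 3 of the 18 tested, passed the filter on low values only with 1 h arrays, where they were high. The counts and the medians over tested genes are therefore not support for a higher level at 1 h or for a fall from 1 h to 4 h. At 4 h 3 were called lower (Pnlip, Amy2a3 and Pla2g1b), and at 24 h the same 3. From 1 h to 4 h 12 were called lower, and 0 higher. Among them were Gp2, Clps, the granule genes Sycn and Zg16, Reg1a, the chymotrypsin gene Ctrc and the lipase relative Pnliprp1. The median log2 difference of the tested genes from sham was 1.89 at 1 h and 0.4 at 8 h, and it was -1.04 at 4 h and -0.9 at 24 h. Over all 24 genes on the array it was 1.5 at 1 h and 0.12 at 8 h, and -0.64 at 4 h and -0.78 at 24 h.

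At 8 h Pnlip and Rnase1 were called higher (2.07-fold and 2.95-fold). The genes in the next sentences, apart from Spink1l and Klk1, were picked after their values had been seen. Spink1, the trypsin inhibitor of pancreatic juice, had log2 differences from sham of 0.32 at 1 h (SE 0.42) and -0.98 at 4 h, and Spink1l, a gene named as its relative, of 0.08 (SE 0.27) and -0.25. At 8 h both lay above sham without overlap, with log2 differences of 1.01 for Spink1 and 1.15 for Spink1l, larger than at 1 h. Neither was called in any comparison, with limma's adjusted p at 8 h of 0.263 and 0.074. Klk1, a kallikrein gene, was at least 3.56-fold lower at 8 h and was called there, with -0.11 at 1 h (SE 0.25). From 8 h to 24 h 6 of the 18 tested exocrine genes were called lower. Only Klk1 was called higher in that step, at least 2.15-fold, where the proteases called were all lower. The acinar transcription factor gene Ptf1a was under the floor on all 10 arrays. Bhlha15, the acinar factor also known as Mist1, was called in no comparison (log2 difference 0.17 at 1 h, SE 0.26).

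Lists for other tissues that a liver sample could hold gave few calls. Few of their genes were tested, however: 2 of 7 stomach, 3 of 6 lymphoid, 3 of 5 adipose and 3 of 6 skeletal muscle genes on the array. Few calls therefore do not show that the levels of these tissues were steady. The islet list had 9 genes on the array and 2 tested, the insulin genes. In 12 tests limma called 0, with 0 at an unadjusted p under 0.05 and a lowest adjusted p of 0.217. The summed islet level was 2108 to 2690 in sham, 2409 to 2706 at 1 h, 1964 to 2196 at 4 h, 2099 to 2215 at 8 h and 2343 to 2470 at 24 h, and the sham range overlapped that of each burn time. The insulin genes made up most of this sum, with means of 1254 (Ins2) and 883.8 (Ins1) in sham and 1254 and 1038 at 1 h. Whether their probe sets read RNA of islet cells was not tested, so the sum is not a measure of islet tissue. Sst was above the floor on every array, and Ppy on all but 1 of the 24 h arrays. Pcsk2 read 25.7 and 18.3 in sham, 44.6 and 74.9 at 1 h, and 47.8 and 52 at 4 h. Iapp and Chgb were under the floor on every array, and Gcg was on 8 of the 10. Pcsk2, Iapp, Chgb and Gcg were picked after their values had been seen. Over the same arrays the summed level of the other exocrine list was 13190 to 13250 in sham, 32820 to 33870 at 1 h, 6184 to 8948 at 4 h, 21140 to 23800 at 8 h and 9934 to 10810 at 24 h, with no overlap between groups. Spink1l alone made up a mean of 5625 of this sum in sham and 12550 at 8 h. Without Spink1l the sum was 7418 to 7773 in sham, 26140 to 28610 at 1 h, 2545 to 2839 at 4 h, 9860 to 9972 at 8 h and 2790 to 3299 at 24 h, and the 4 h and 24 h arrays overlapped. No gene of any list read 0.

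For the duct list (2 genes, Cftr and Krt19) limma called 0 in 12 tests, with 0 at an unadjusted p under 0.05. For the small intestine list (6 tested genes, among them Apoa4) it called 0 in 36, with 3 at an unadjusted p under 0.05. These were Lct (lactase) at 1 h and at 24 h against sham and Apoa4 from 8 h to 24 h. Lct read 198.7 and 129.9 in sham, 280.6 and 314.9 at 1 h, 298.4 and 158.1 at 4 h, 226 and 226.3 at 8 h, and 251.9 and 370.5 at 24 h. Its 1 h arrays lay above the sham arrays, 1.85-fold on average, and so did its 24 h arrays, where the proteases were low. Fabp2, an intestinal fatty acid binding protein that did not pass the filter, read 15.3 and 70.1 in sham, 95.6 and 130.5 at 1 h and 70.6 and 24.1 at 4 h. Its 1 h arrays thus lay above both sham and both 4 h arrays, as the proteases did. For lymphoid genes limma called 0 in 18, with 0 at an unadjusted p under 0.05. For skeletal muscle genes it called 0 in 18, with 1, Myh1 (a myosin heavy chain) at 1 h. Myh1 read 316 and 307.4 in sham, 732.3 and 499.4 at 1 h, 633.2 and 398.8 at 4 h, 392.4 and 260.6 at 8 h, and 282.8 and 298.6 at 24 h. Its 1 h and 4 h arrays lay above the sham arrays, while the proteases were high at 1 h and low at 4 h. Lct, Fabp2 and Myh1 are described for their values at 1 h. In the stomach list Cblif was called lower from 8 h to 24 h (log2 difference -1.3, SE 0.29). In the adipose list Cfd, also a serine protease of complement, was called lower at 4 h against sham (4.59-fold) and against 1 h (3.15-fold). Cfd was not lower at 24 h, with 390.3 and 298 beside 291 and 189 in sham. The part of pancreatic, intestinal, muscle or other cells in the protease values was not tested. In RNA from whole tissue, fewer cells of a type and less RNA per cell cannot be told apart.

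The samples had the markers of liver on every array. Of 8 hepatocyte genes 7 were on the array, and all 7 were above the floor on all 10 arrays. Alb (albumin) read between 42718.7 and 94416.8. The summed hepatocyte level was 205900 to 243500 in sham, 231100 to 265400 at 1 h, 186000 to 222100 at 4 h, 285600 to 293800 at 8 h and 222600 to 241500 at 24 h. Tat, an amino acid enzyme of hepatocytes, was called higher at 1 h and at 4 h, and Fgb (fibrinogen) at 8 h and at 24 h.

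**Figure D4:**
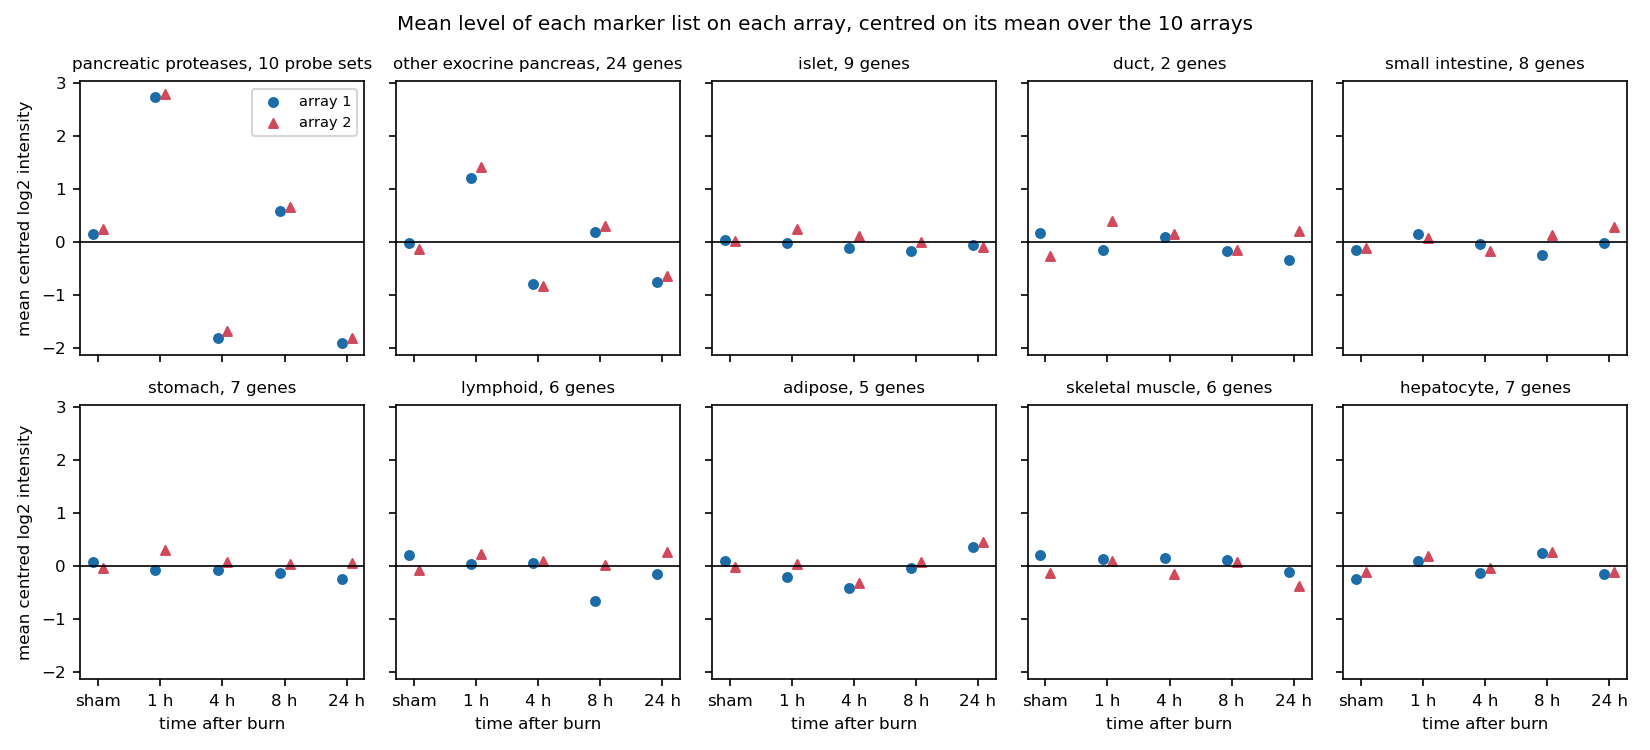
Mean log2 intensity of each list on each array, each gene centred on its mean over the 10 arrays, by time after burn; circles and triangles are the first and second array of a group. The proteases run from -1.9 to 2.8 and the other exocrine genes from -0.83 to 1.42, while the other 8 lists lie between -0.67 and 0.46. Genes under the floor on every array add nothing to these means.

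Of 13 genes listed under protease activation and inhibition, among them the receptor gene F2rl1, 9 were tested. At 1 h limma called 0 of them, with 0 at an unadjusted p under 0.05. Serpina3n, a plasma serine protease inhibitor, read 7422.6 and 7623 in sham, 8722.1 and 8614.4 at 1 h, 20338.7 and 24065.6 at 4 h, 16598.5 and 14902 at 8 h, and 31974.2 and 32059.2 at 24 h, and was called higher at 4, 8 and 24 h. A2m, the broad protease inhibitor alpha-2-macroglobulin, was called higher at 24 h (log2 difference 4.7, SE 0.58). The list of liver serine proteases had 9 tested genes, among them Cfd, which is also on the adipose list. Cfd alone was called on it at 4 h, lower against sham and against 1 h as given above. Plg (plasminogen) was 2.72-fold lower and Klkb1 (plasma kallikrein) 1.68-fold lower at 24 h. F10 and C1s were called lower from 8 h to 24 h (1.78-fold and 3.7-fold), where Plg was as well (1.7-fold). None of the 9 was called at 1 h, where limma's lowest adjusted p was 0.246 and 2 had an unadjusted p under 0.05 (Klkb1 and C1s).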

How the data were processed

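Total RNA from rat liver was read on 10 expression arrays. The values are intensities on a linear scale as deposited by the authors. With the lowest and highest 2% of values left out, the mean of each array was 500.9 to 501, so the arrays were used without further scaling. The software that made the values: not given in the sources used here. Array medians were 100.1 to 131.1, and 70.3% to 76.8% of probe sets lay above the floor. The number of arrays limits the precision.

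Gene names came from the platform's probe table: 7018 probe sets had 1 symbol, 308 several and 1473 were not listed. Values were raised to a floor of 36.4 and log2 transformed. The 5285 probe sets above the median of their own array on at least 2 arrays were fitted with limma (3.58.1, R 4.3.3) in 5 groups with 5 residual degrees of freedom, with Benjamini-Hochberg adjustment. The fit was tested on simulated data. Alternatives were quantile normalization, other floors, no filter, the replicate number as a block, fits of only the groups compared, and each array left out.

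The genes and lists were chosen with earlier results of these data known. Lists covered other exocrine pancreas, islet, duct, small intestine, stomach, lymphoid, adipose, skeletal muscle and hepatocyte genes, protease activation and inhibition, and liver serine proteases, each gene by the probe set with the highest mean. Named were every protease probe set, up to 8 exocrine genes and up to 4 of each other list by mean level, any called gene, and the 10 genes most correlated with the proteases' mean pattern. Some further genes of the lists were named after their values had been seen. Promoters are RefSeq's (GRCr8).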

Additional observations from a re-analysis of the deposited data

Results flagged for a closer look

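All 10 protease probe sets were called lower at 4 h than at 1 h. The genes were chosen on this comparison, so the calls are no test, and the values describe it. Prss3bl1 and Prss2 on L00131cds_s_at also passed the filter on low values only through the 1 h arrays. On the log2 scale the 4 h value minus the 1 h value was -7.03 for Prss1, -2.35 for Prss2 on L00131cds_s_at, -4.52 for Prss2 on V01274_at, -4.83 for Prss3b and -2.35 for Prss3bl1. It was -5.67 for Ctrb1, -2.81 for Cela1, -4.33 for Cela2a, -5.05 for Cpa1 and -6.21 for Cpb1.

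Likewise 8 probe sets were called lower at 24 h than at 8 h, again a comparison on which the genes were chosen. The 24 h value minus the 8 h value was -5.15 for Prss1, -2.3 for Prss2 on V01274_at, -1.88 for Prss3b, -4.93 for Ctrb1, -1.65 for Cela1, -2.18 for Cela2a, -2.49 for Cpa1 and -3.82 for Cpb1. Values of probe sets under the floor at 4 h or 24 h are bounds.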

How the results depend on the processing

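Of 936 recomputed log2 differences of the protease probe sets, 0 reversed, 840 moved by less than 1 residual SD and 96 by more, of which 25 and 29 came with the floor at the 10th and the 50th percentile. At 8 h, where 2 probe sets were called, 1 was called with the floor at the 10th percentile, with the floor at the 50th percentile, without the filter, and with the replicate block; the lost call was that of Prss2 (V01274_at). With only the groups compared in the fit limma called 0 at 8 h and 0 at 1 h, where 2 and 10 had an unadjusted p under 0.05. That fit also lost Ctrb1 and Cpa1 at 4 h (4 called), Cela1 and Cpa1 at 24 h (5), and Prss3b and Cela1 from 8 h to 24 h (6). The floor at the 10th percentile lost Prss2 (L00131cds_s_at) at 1 h (8 called). The floor at the 50th percentile lost it and Prss3bl1 at 1 h (7), Prss3bl1 from 1 h to 4 h (9), and Prss3b at 4 h (5), at 24 h (6) and from 8 h to 24 h (7). Without the filter Prss3b was lost at 4 h (5), and Cela1 at 24 h (6) and from 8 h to 24 h (7). The cause was not tested. Leaving out each array in turn gave 5 to 9 calls at 1 h, 5 to 6 at 4 h, 0 to 1 at 8 h, 5 to 7 at 24 h, 7 to 10 from 1 h to 4 h and 6 to 8 from 8 h to 24 h. Without either 1 h array 8 of the 10 passed the filter.

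The replicate numbers share only a number: the deviations of same-numbered arrays correlated at 0.01 to 0.17, over 0.1 in 5 of 10 group pairs. The replicate block changed no other call of a protease probe set.

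Over all probe sets the counts called at 1, 4, 8 and 24 h, from 1 h to 4 h and from 8 h to 24 h were 76, 230, 185, 543, 264 and 621. With only the groups compared they were 0, 69, 0, 104, 89 and 167, with 574 and 779 at an unadjusted p under 0.05 at 1 h and 8 h. With the floor at the 50th percentile they were 133 at 1 h, 374 at 4 h, 312 at 8 h and 401 from 1 h to 4 h, and without the filter 280 at 8 h. Leaving out single arrays gave 26 to 76, 117 to 222, 27 to 112, 224 to 495, 108 to 239 and 257 to 572.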
